A study of Drosera capensis with 12 samples.

Results

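The transcripts described here rose strongly in the sticky leaf traps of Drosera capensis, the Cape sundew, after either of 2 triggers of trap closure, glutathione or a living fruit fly. They were 208 of the 397048 transcript features of a de novo assembly, and 0.457% of the 45503 features abundant enough to be tested. RNA was sequenced from 12 libraries in 4 groups of 3. GSH-closed traps had folded after glutathione (GSH) at 100 mM was put on the petiole, and the GSH mock was their untreated control. Fly-closed traps had folded on living fruit flies fed to the leaf, and the fly mock was made of traps without a stimulus. For the fly-closed libraries the agent label names GSH, against the titles, and the titles were followed. The labels give no time after the stimulus, no plant age and no clone or strain, and do not tell whether each library is another plant. Spread between libraries may thus be technical, and p-values measure no more than that spread.

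Members were chosen by their measured values. A level is given in TPM, here the deposited value as a share of all values of its library, times 1000000. A change is the log2 of the mean level in closed traps plus 1 over the mean level in mock traps plus 1, and it was centred by subtracting the median change of the 30755 features above 0 in all 12 libraries. That median was -0.34 for GSH and -0.02 for flies. A member had a change of at least 3 after GSH (8-fold) and at least 2.5 after flies (5.66-fold), a mean level in the 6 mock libraries under 300 TPM, and in each experiment a lowest closed library above the highest mock library. Closed libraries lay above mock libraries in both experiments in 5.05% of the features tested. Both comparisons were therefore used to choose the members, and their changes in them are given as a description without a test.

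Sundews catch prey on leaves covered with gland-tipped tentacles that secrete mucilage. Prey movement and chemistry set off electrical signals and jasmonate hormone signalling, after which tentacles and leaf bend, the glands release digestive enzymes and the leaf takes up nutrients. Glutathione is a thiol tripeptide that plant cells use to buffer oxidants, and in Arabidopsis it can also act on glutamate receptor-like ion channels. The table pairs no feature with a gene name, so no function or cell type can be given to a member, and the tissue label could not be checked against marker genes. Here the DN part of a feature ID is called its assembly component. The c part is called a cluster within it, and the g part a gene-level feature. The members with the highest and the second highest level in closed traps are given by ID, and other members by their rank in that level.

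As a group, the 208 members went from a trace of the RNA to a visible share of it. Their share of all TPM was 0.123%, 0.108% and 0.109% in the GSH mock libraries and 3.71%, 3.63% and 3.59% after GSH. In the fly mock they held 0.0629%, 0.0809% and 0.0685%, and in fly-closed traps 1.09%, 1.17% and 1.19%. The share was larger in every GSH-closed library than in any fly-closed library, and larger in every GSH mock library than in any fly mock library. The group means were 0.113% ± 0.00835, 3.64% ± 0.0627, 0.0708% ± 0.00920 and 1.15% ± 0.0523 (SD, n = 3) for GSH mock, GSH-closed, fly mock and fly-closed traps.

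The rule fixes a rise for each member, and the levels give its size in TPM. The median member lay at 1.93, 1.39 and 1.64 TPM in the GSH mock libraries and at 90.4, 90.1 and 89.3 TPM in the GSH-closed libraries. In the fly mock libraries the median member lay at 0.955, 1.35 and 1.29 TPM, and in the fly-closed libraries at 25.7, 24.4 and 24.8 TPM. Over all features tested, the median of the group means was 2.97 TPM in the GSH mock, 2.45 in GSH-closed, 2.76 in fly mock and 3.08 in fly-closed traps, so the median member was below the median feature in resting traps and above it in closed traps. The 10 members with the largest gain made up 28.7% of the members' gain in TPM after GSH and 28.8% of that after flies, and 25 and 26 members made up 50% of it.

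**Figure D1:**
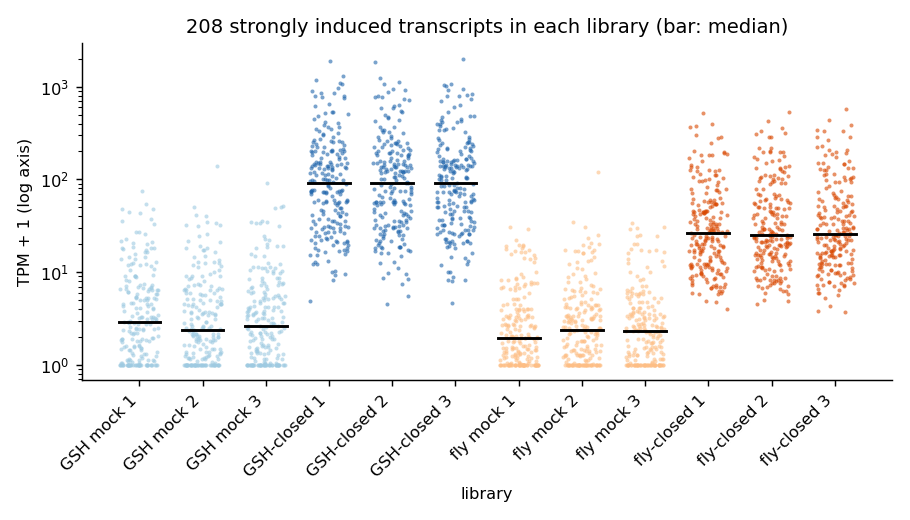
Level of each of the 208 selected transcripts in each of the 12 libraries, as TPM + 1 on a log axis; each point is a transcript and each bar the median of a library. The medians of the GSH-closed libraries lie at 89.3 to 90.4 TPM and those of the fly-closed libraries at 24.4 to 25.7 TPM, while the medians of the 6 mock libraries lie at 0.955 to 1.93 TPM.

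The highest level in closed traps belonged to TRINITY_DN4470_c0_g1. Its level was 36.1, 39.2 and 33.1 TPM in the GSH mock libraries and 1881, 1853 and 1997 TPM in the GSH-closed ones. In the fly experiment it was 16.8, 18.5 and 32.9 TPM without a stimulus and 184, 156 and 180 TPM after closure. The closed libraries were far above their mocks in both experiments, and the fly-closed libraries were all far below the GSH-closed ones. As group means this was 36.2 ± 3.07 against 1910 ± 76.1 TPM for GSH and 22.7 ± 8.84 against 173 ± 15.2 TPM for flies (SD, n = 3), centred changes of 6.03 and 2.90.

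TRINITY_DN15669_c2_g1 followed, with the highest level of any member in fly-closed traps. Its level was 3.55, 10.8 and 2.42 TPM in the GSH mock libraries and 1087, 874 and 1058 TPM after GSH. The fly mock libraries had 28.0, 33.5 and 19.2 TPM, more than any GSH mock library, and the fly-closed libraries 518, 528 and 571 TPM. The centred changes were 7.60 after GSH, from 5.58 ± 4.53 to 1006 ± 115 TPM, and 4.30 after flies, from 26.9 ± 7.20 to 539 ± 27.8 TPM (SD, n = 3). Each has 2 sisters in its assembly component and may share reads with them.

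**Figure D2:**
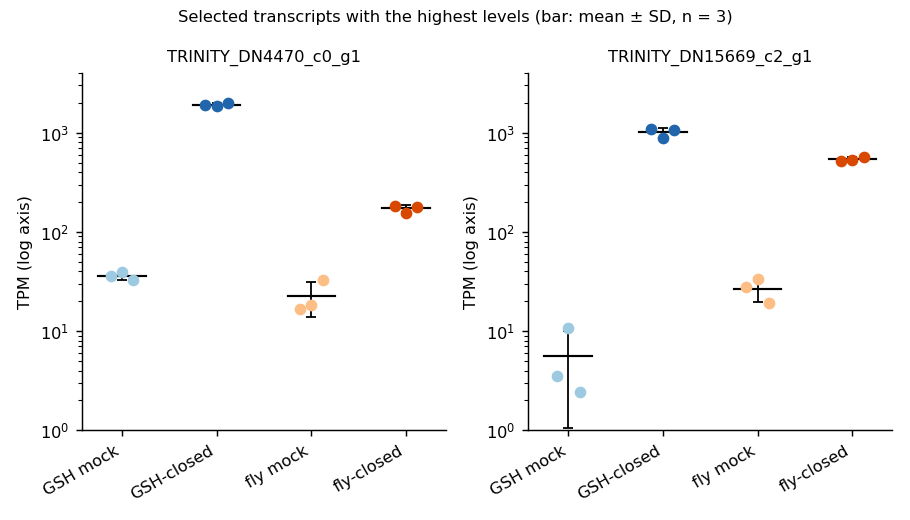
Level in TPM, on a log axis, of the selected transcripts with the highest and second highest level in closed traps; each point is a library, bars are the mean and whiskers the SD of 3 libraries. For TRINITY_DN4470_c0_g1 the GSH-closed libraries lie at 1853 to 1997 TPM and the fly-closed libraries at 156 to 184 TPM; for TRINITY_DN15669_c2_g1 they lie at 874 to 1087 and at 518 to 571 TPM.

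Members of very different resting level were found side by side. Levels of different features are compared here as TPM, which corrects for length, but whether the deposited values were length-corrected is not shown by the files. In all 6 mock libraries 50 members were under 1 TPM, 12 were at 10 TPM or more, and 146 lay between or varied across these limits, which were set with the data known. The 50 lowest reached a median of 28.3 TPM in GSH-closed and 10.5 TPM in fly-closed traps, with median changes of 5.08 and 3.32. The 12 highest reached medians of 461 and 158 TPM with median changes of 4.50 and 2.98. Adding 1 to each level understates the change of the low members.

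Among the low members, 9 were listed at 0 in all 6 mock libraries. The most abundant of them, rank 45, had 226, 221 and 109 TPM after GSH and 95.2, 91.5 and 97.6 TPM after flies. No fold is given for these, since the read depth behind a listed 0 is unknown. The other 8 were at ranks 123 to 208, and 3 of the 9 were the members with the lowest closed levels of all, at 2.83 to 13.1 TPM in single closed libraries. Over the whole list, 56 members had a closed library under 10 TPM, where a value may rest on few reads.

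After GSH the centred change of the members ran from 3.16 to 8.54 with a median of 4.88, and 95 members had a change of at least 5. After flies it ran from 2.51 to 7.14 with a median of 3.27, and 15 members had a change of at least 5. Over all features tested the median changes were 0.06 and 0.02. All 208 passed the filter on low values. In limma's test across all features, 208 were called higher after GSH and 203 after flies at a Benjamini-Hochberg adjusted p below 0.05, where 14.7% and 4.77% of all features were called higher. Since the rule used these same contrasts, nothing is read from the members' counts.

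The larger change was usually the one after GSH. It exceeded the change after flies in 198 members and fell below it in 10, with a median difference of 1.36 on the log2 scale, a highest of 4.35 and a lowest of -0.86. The rule asked for 0.5 more after GSH, which leans the same way. In 57 members the GSH change was larger by 2 or more, and in 21 the changes lay within 0.5 of each other. Across the 208 members the changes gave 0.51 as Spearman's rho and 0.61 as Pearson's r. These describe members cut off at both thresholds, and the experiments share no libraries.

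**Figure D3:**
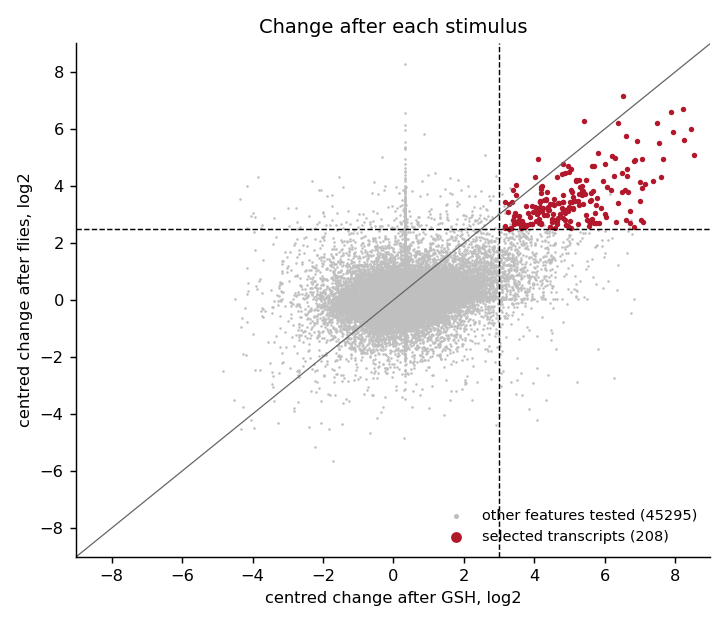
Centred log2 change after GSH (horizontal) against centred log2 change after flies (vertical) for each feature tested; the 208 selected transcripts are red, the other features grey, dashed lines mark the thresholds of 3 and 2.5 and the diagonal marks equal changes. Most red points lie below the diagonal, with 198 members changed more after GSH and 10 more after flies; some grey points inside the upper right corner failed because their groups overlapped.

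Levels of closed traps showed the same order. The GSH-closed libraries were all above the fly-closed libraries in 173 members, and the groups overlapped in 31. The fly-closed libraries were all above in 4. Over all features tested, GSH-closed libraries were all above in 14.4% and fly-closed libraries in 29.2%, in TPM without scaling. The closed libraries entered the rule, so these counts are a description. The median ratio of the fly-closed to the GSH-closed mean was 0.390, with a range from 0.0239 to 3.84.

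Single members stood at the ends of this range. The member with the highest ratio, rank 49, had 55.0, 53.1 and 55.4 TPM after GSH and 191, 215 and 221 TPM after flies, from under 1 TPM in every GSH mock library and at most 2.04 TPM in the fly mock. It was the clearest case of a transcript higher after flies, with changes of 5.42 and 6.28. The member with the lowest ratio, rank 56, had 200.1, 238 and 249 TPM after GSH and 3.80, 7.68 and 4.95 TPM after flies, while it was listed at 0 in every fly mock library and at 0.910 to 2.27 TPM in the GSH mock. Its rise after flies was small in TPM.

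Closed levels were alike after both stimuli in some members. The member with the most equal changes, rank 157, had 26.2, 24.5 and 22.0 TPM after GSH and 27.5, 23.1 and 27.6 TPM after flies, so the closed groups overlapped. Its mock libraries were listed at 0, 0.260 and 0.160 TPM for GSH and at 0 in all 3 for flies, and its changes were 4.81 and 4.78. With mock levels this far below the 1 TPM added, these changes restate the closed levels and do not measure equal folds. The change of 8.54 that ends the range after GSH belonged to rank 32, listed at 0 in every GSH mock library and at 253, 284 and 341 TPM after GSH. Its size rests on the 1 TPM added to each level and is no measured fold. After flies this member went from 0, 3.53 and 7.25 TPM to 95.7, 171 and 193 TPM, a change of 5.09.

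The rule asked for closed libraries apart from the mocks, which favours members whose closed libraries lie close together, so their spread is a description. The median coefficient of variation over 3 libraries was 7.32% in GSH-closed and 9.91% in fly-closed traps, and 38.0% and 35.2% in the GSH and fly mocks, where levels were far lower and members at 0 in a whole group have no value. Over all features tested the medians were 29.8%, 27.2%, 31.2% and 28.3% for the same 4 groups, at far lower levels than those of the members in closed traps. One of the tightest abundant members, rank 13, had 765, 772 and 783 TPM after GSH and 126, 127 and 134 TPM after flies, from 1.57 to 2.62 TPM in the GSH mock and 1.54 to 1.74 TPM in the fly mock. Among the 10 highest members, rank 3 had the largest SD in TPM in both mocks, with 42.7, 140 and 90.8 TPM for the GSH mock and 21.0, 121 and 28.9 TPM for the fly mock, against 839 TPM or more and 314 TPM or more in closed traps. Fly-closed replicate 1 was the lowest of its group in 51% of members. It was the lowest in 52% of the 35993 tested features above 0 in all 3 fly-closed libraries, so the members did not stand apart in this.

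Resting traps of the experiments were not alike in these transcripts. In limma's test of mock against mock, 38 members were called higher in the untreated traps of the GSH experiment and 16 in those of the fly experiment at an adjusted p below 0.05. These are 18.3% and 7.69% of the members, where 5.65% and 3.78% of all features were called. Shares above those of all features were also found in related lists. They were 18.8% and 5.11% of features meeting the GSH part of the rule, and 11.9% and 4.45% of those meeting its fly part, members included. Among sisters, the other features of the members' components, they were 15.2% and 4.02%. The median difference over the members was 0.05 on the log2 scale, and over all features 0.00. The mock libraries entered the rule, so this is a description. The member whose GSH mock was highest relative to its fly mock, rank 26, had 46.8, 49.9 and 48.0 TPM there and 1.45, 0.860 and 0.890 TPM in the fly mock. It reached 522, 460 and 480 TPM after GSH and 16.1, 9.50 and 13.5 TPM after flies, so its fly-closed libraries stayed below its GSH mock libraries. In 201 of the 208 members all 6 closed libraries were above all 6 mock libraries, a count that the rule largely fixes, and in 3.07% of all features tested.

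Applying the rule without some libraries gave a reading in libraries not used to pick those features. The rule itself was set with earlier results of these data known, so this reading is a description and no independent test. The 4 libraries with the same replicate number were left out, the rule was applied to the other 8, and the chosen features were then read in the 4 left out. Without replicate 1, 211 features were chosen, and 175 of them (82.9%) were past both change thresholds in the libraries left out, where 0.62% of all features tested were. Without replicate 2 this was 172 of 217 (79.3%, against 0.657%), and without replicate 3 it was 172 of 223 (77.1%, against 0.602%). Of the chosen features 187, 199 and 195 were members, which the rule over all 12 libraries had picked with the left-out values as well. The shares of all features tested include these members. Within these limits, most chosen features were past both thresholds in single libraries.

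The sizes were similar in the left-out libraries and in those that chose the features. In the left-out libraries the median change after GSH was 4.77, 4.82 and 4.91, and in the libraries that chose the features 4.92, 4.82 and 4.88. After flies it was 3.26, 3.09 and 3.24 in the left-out libraries and 3.30, 3.32 and 3.25 in the others. A left-out change under 1 was found in 5 features each time for GSH and in 8, 6 and 9 features for flies. Single left-out libraries come from the same experiments, so they do not stand for another set of plants.

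**Figure D4:**
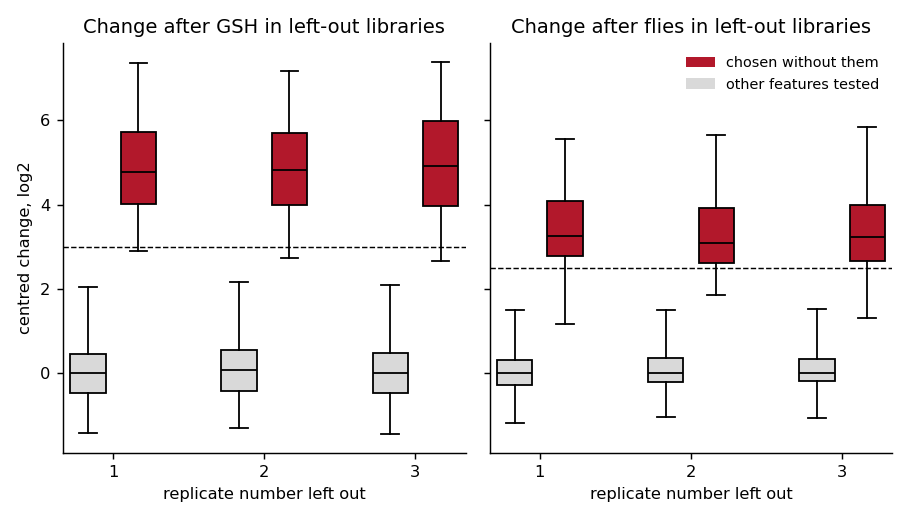
Centred log2 change in the 4 libraries left out of the choice, for features chosen by the rule in the other 8 libraries (red) and for the other features tested (grey), after GSH (left) and after flies (right); boxes span the quartiles with the median as a line, whiskers reach the 5th and 95th percentiles and dashed lines mark the thresholds of 3 and 2.5. The red medians lie at 4.77 to 4.91 after GSH and 3.09 to 3.26 after flies, above the thresholds, and the grey medians lie near 0.

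Each side of the rule was also read against the experiment it did not use. The fly side alone, with the level limit set on the fly mock, held 433 features, of which 427 were tested (0.938% of all features tested). By limma's test, 240 of these 427 (56.2%) were higher after GSH at an adjusted p below 0.05, where 14.7% of all features were, and 2 were lower. All 208 members are on this list and among the 240, and the rule had asked for their rise after GSH. The count is therefore a description and no independent test. Their median change after GSH was 2.89 on the scaled log2 scale, against -0.01 over all features. Both values mix in features that passed the filter on low values through the fly-closed libraries alone, and 113 of the 433 were listed at 0 in all 9 libraries without flies. With the filter and the fit limited to the GSH experiment, 270 of the list were tested. Of these 235 (87.0%) were higher after GSH, where 17.0% of the 34799 features tested were, and the median change was 4.51. A feature low in the GSH mock passes this filter only where the GSH-closed libraries are high. The filter therefore leans the 87.0% and the 4.51 upward. The GSH side alone held 805 features, of which 803 were tested (1.76%). Of these, 517 (64.4%) were higher after flies, where 4.77% of all features were. The 208 members are on this list too, and 203 of them are among the 517. Their median change after flies was 1.49, against 0.00 over all features. Within the fly experiment alone, 480 of 694 tested (69.2%) were higher, where 5.23% of the 37310 features tested were, with a median change of 1.78. The filter leans these values the same way.

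The members were 48% of the fly side and 25.8% of the GSH side. Leaving out the 113 features of the fly side seen with flies alone, the 208 members were 65% of the other 320. Of the 112 features left, 108 had a GSH change under 3, and 4 were past it with overlapping groups. Among the 108, 45 had a GSH change between 1 and 3 and 22 one of 0 or less. Of the 597 features on the GSH side that were no members, 316 had a fly change between 1 and 2.5, and 41 one of 0 or less. Another 7 of the 597 were past the fly change with overlapping groups. Features of the GSH side had already met the GSH part of the rule, so that they failed the fly part was fixed in advance. It does not show which threshold limits the list.

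Values at the thresholds changed little from inside to outside. Just inside the GSH threshold lay members with changes of 3.16, 3.18 and 3.18, and just outside it features with 2.99, 2.98 and 2.91. Around the fly threshold the nearest members had 2.51, 2.51 and 2.51, and the nearest others 2.47, 2.45 and 2.45. Within 0.25 of the GSH threshold there were 4 members and 6 features outside, and within 0.25 of the fly threshold 41 members and 42 features outside. Another 26 features passed both changes with overlapping groups. The size of the list therefore depends on where the fly threshold is set.

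Sister features of the same assembly components gave a reading outside the members. The 208 members came from 193 components, 15 of which held 2 members each and none more. In 9 of these 15 the members shared a cluster, and the members of a pair differed by a median of 0.77 in their change after GSH and 0.86 after flies. A single feature made up 34.2% of the member components, against 62.7% of all 33442 components with a tested feature. The other 127 member components held 344 sister features that were no members, of which 224 were tested.

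A larger share of the sisters than of all features was called higher, and after flies also lower, but most sisters did not pass the test. After GSH 86 of the 224 (38.4%) were higher and 17 (7.59%) lower by limma at an adjusted p below 0.05. Over all features 14.7% were higher and 11.1% lower. After flies 36 (16.1%) were higher and 8 (3.57%) lower, where 4.77% of all features were higher and 0.796% lower. The same 36 were higher in both comparisons, where 3.13% of all features were. Sisters in the same cluster as a member were higher in 26 of 53 cases (49.1%) after GSH and 17 of 53 (32.1%) after flies, and those in other clusters in 60 of 171 (35.1%) and 19 of 171 (11.1%). The median change over all 224 was 0.29 after GSH and 0.08 after flies, against -0.01 and 0.00 over all features. Reads may be divided between sisters and members, and the part of this in the sisters' counts was not tested.

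**Figure D5:**
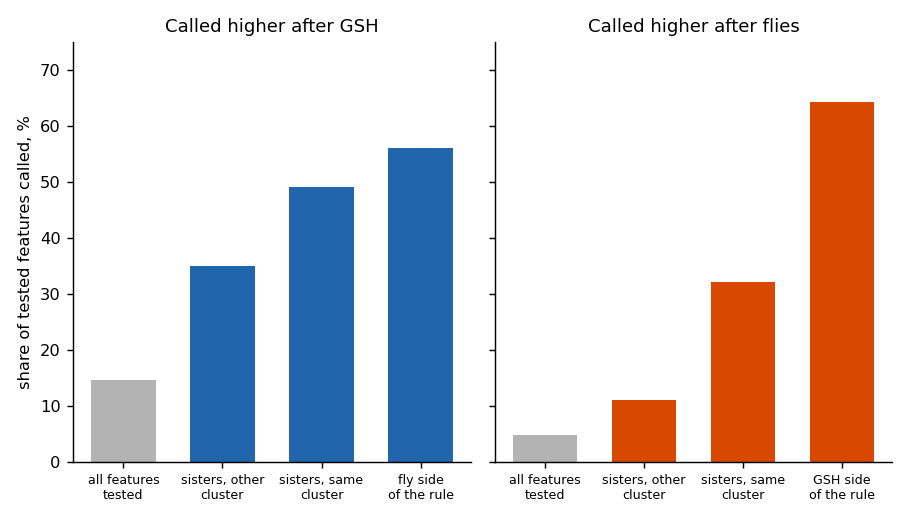
Share in percent of tested features called higher by limma at an adjusted p below 0.05 after GSH (left) and after flies (right), for all 45503 features tested (grey), for sister features of the members in another or in the same assembly cluster, and for features chosen by the other experiment's side of the rule. After GSH the shares are 14.7%, 35.1%, 49.1% and 56.2%, and after flies 4.77%, 11.1%, 32.1% and 64.4%. The last bar of each panel includes the 208 members, of which 208 were called after GSH and 203 after flies.

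With sums over an assembly component, most member components with sisters no longer met the rule. With levels summed over each component, 122 of the 193 member components still met the rule. These were all 66 components of a single feature, whose levels summing does not change, and 56 of the 127 with sisters. With levels summed over clusters, a grouping added with the data known, 179 of the 199 member clusters met it, clusters of a single feature included. Whether the sisters are parts of the same gene, related genes or assembly errors is not shown by the table.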

How the data were processed

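RNA of sundew leaf traps was sequenced in 12 libraries, which were grouped by their titles. The submitters' processing notes list DESeq2 version 1.16.1, RSEM, Trimmomatic and cutadapt without saying what each did, and read depth is not given. The deposited values are a rescaled signal and no counts. Of those between 0 and 60, 100% in each library were whole steps of 1e-08 of the library total (tolerance 0.0051), and whole numbers made up at most 2.25%. Totals ran from 17708300 to 20453100, and the depth behind a value is unknown.

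Levels were taken as TPM, and features reaching 0.526 TPM in at least 3 libraries were tested. Libraries were then brought to 1 scale through trimmed means of their log ratios (30% of ratios and 5% of abundances trimmed at each end) and 1 was added. Their log2 was analysed in 1 model of the 4 groups by limma (version 3.58.1, R 4.3.3) with trend and robust options and Benjamini-Hochberg adjustment over all features. The code was tested on simulated data. Pearson's r of log2(TPM + 1) within groups was 0.915 to 0.925, so no pair of libraries was identical. Members, lists, alternatives and the rule for printed IDs (the 2 members with the highest mean of the closed group means) were chosen with earlier results of these data known. Alternatives covered pseudocount, scaling, filter, thresholds, feature grouping, a replicate block and left-out libraries. No gene list could be applied without gene names.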

Additional observations from a re-analysis of the deposited data

How the results depend on the processing

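The number of members depended on the pseudocount, the thresholds and the feature definition. It was 455 with a pseudocount of 0.1, which kept all 208, 326 with both thresholds lowered by 0.5, 128 with both raised by 0.5, and 124 when the rule was applied to component sums. With no centring it was 199, with trimmed-mean scaling 205, with no limit on mock levels or with at least 1 TPM in every closed library 208, and with cluster sums 181, a setting added after seeing the data. Leaving out libraries gave 206 to 223 members. The cause of these moves was not tested.

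Sisters higher after GSH numbered 77 to 85 and after flies 31 to 40 with a library left out, and features of the fly side higher after GSH 232 to 239 and of the GSH side higher after flies 479 to 528. With testing limited to features above 0 in all 12 libraries, 137 of the 140 fly-side features still tested were higher after GSH. Of the 30755 features then tested 18.5% were, and most of the fly-side list was not tested. The other alternatives moved none of these 4 counts by more than 1.5 times, but the share of the fly side moved with how much of it was tested. It was 56.2% of 427, 87.0% of 270 with only the groups of the comparison, and 79.1% to 79.7% of 300 or 301 with each fly-closed library left out in turn; the medians were 2.89, 4.51 and 4.23 to 4.27. The replicate numbers do not pair the libraries: same-numbered libraries of an experiment had correlations of their deviations from -0.00929 to 0.00960. With the number as a replicate block the 4 counts were 80, 32, 236 and 476. The depth behind single values is unknown, so counting error could not be given.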
